A study of Mus musculus with 21 samples.

Results

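Genes of cell junctions and endothelial-type adhesion were followed in RNA of mouse bone marrow progenitors labelled as knockout (KO) for Stag2, a subunit of the cohesin ring, and as wild type (WT). They are 10 of the 30733 genes in the count table: the junctional adhesion molecule genes F11r, Jam2 and Jam3, their relative Esam, Pecam1, Cdh5, Emcn, Plxna2, Rhoj and Ly9. They were chosen by name, with earlier results of these data in view, and 4 of them (F11r, Esam, Plxna2 and Ly9) because they were higher in Stag2 KO than in WT erythroid progenitors. That contrast is therefore described here without a test for all 10 genes, while the contrasts in the other cells were tested.

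The 21 libraries come from 3 sorted populations, each labelled Stag2 KO or Stag2 WT: CFU-E, erythroid progenitors (KO n = 4, WT n = 3), GMP, granulocyte and monocyte progenitors (KO n = 4, WT n = 3), and LSK, stem and multipotent progenitor cells (KO n = 3, WT n = 4). Lineage-positive cells had been removed from all marrow samples ahead of the sort. The labels name no allele, Cre driver, strain or age. They number the replicates without saying that each is a separate animal, so a p-value here compares libraries whose spread may be technical.

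Junctional adhesion molecules are immunoglobulin-type proteins that bind one another and integrins across cell contacts, at endothelial tight junctions and on platelets and leukocytes. Stem cells of the marrow share many surface proteins with endothelium, among them ESAM, PECAM-1 (CD31) and endomucin, the product of Emcn. Megakaryocytes and platelets also carry F11r protein, ESAM and PECAM-1. RhoJ is a Cdc42-related GTPase studied chiefly in endothelial cells, plexin A2 is a semaphorin receptor, and Ly9 (CD229) is a receptor of the SLAM family that binds itself on neighbouring cells.

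The promoters of the 3 genes whose levels differ most between genotypes and that have an entry in the RefSeq table (GRCm38.p6, a later build than the mm9 of the counts) are shown because the levels of all 3 were higher in KO CFU-E. Of the 10 genes, 4 had an entry: F11r, Emcn, Plxna2 and Rhoj. Each window runs from 250 bases before to 50 bases after the annotated start, on the plus strand of F11r at chr1:171437311-171437610, Plxna2 at chr1:194619579-194619878 and Rhoj at chr12:75308063-75308362. Capitals mark a match to one of the motifs searched on both strands.
F11r: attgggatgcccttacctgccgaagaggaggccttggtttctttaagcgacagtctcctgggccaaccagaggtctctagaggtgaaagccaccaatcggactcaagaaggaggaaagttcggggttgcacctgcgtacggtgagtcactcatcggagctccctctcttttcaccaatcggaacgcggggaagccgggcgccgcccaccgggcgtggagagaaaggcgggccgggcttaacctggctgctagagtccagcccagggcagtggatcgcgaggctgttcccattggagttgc
Plxna2: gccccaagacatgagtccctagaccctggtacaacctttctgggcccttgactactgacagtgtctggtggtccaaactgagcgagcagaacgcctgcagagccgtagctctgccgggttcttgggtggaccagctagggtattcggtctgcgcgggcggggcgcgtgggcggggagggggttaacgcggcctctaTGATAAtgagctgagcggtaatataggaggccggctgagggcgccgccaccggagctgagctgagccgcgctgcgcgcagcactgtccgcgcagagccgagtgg
Rhoj: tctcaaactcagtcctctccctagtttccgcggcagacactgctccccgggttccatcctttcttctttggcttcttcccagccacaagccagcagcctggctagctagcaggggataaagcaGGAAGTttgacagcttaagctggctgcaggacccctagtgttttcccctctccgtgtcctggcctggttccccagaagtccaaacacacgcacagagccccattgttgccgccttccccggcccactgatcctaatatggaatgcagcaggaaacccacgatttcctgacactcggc
The motifs were a GATA hexamer (AGATAA or TGATAA), an ETS hexamer (GGAAGT), a RUNX hexamer (TGTGGT) and the E-box CAGCTG. The Plxna2 window held TGATAA, 54 bases before the start, and the Rhoj window held GGAAGT, 127 bases before the start. The F11r window held none of the 4. The Emcn window, not shown, also held TGATAA, on the minus strand 10 bases after the start. Of 32851 promoters of the same length, 18.6% held the GATA hexamer, 23.8% the ETS hexamer, 16.8% the RUNX hexamer and 16.3% the E-box, so these matches are common and describe only the letters of the windows.

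Read depth set what could be seen. LSK libraries, amplified over full transcripts, held 22813333 to 32196233 counts each, CFU-E libraries, sequenced at their 3′ ends, 3654667 to 5550165, and GMP libraries of the same 3′ kind 1250683 to 3471881 in KO and 3732769 to 4401993 in WT. The least deep was GMP KO 1, and GMP KO 4 correlated least with its group (mean r = 0.938). The targeted gene, Stag2, fell in KO LSK (72.2 ± 6.60 CPM, against 166 ± 16.9 in WT; log2 fold change -1.20 ± 0.13 SE, edgeR adjusted p = 0.0270) and in KO CFU-E (64.0 ± 15.7, against 140 ± 17.6; -1.13 ± 0.20, adjusted p = 0.0143). The LSK call was lost without KO 1, KO 2, KO 3, WT 3 or WT 4 (edgeR adjusted p 0.0657 to 0.151), with the sign kept. The CFU-E call was lost without WT 3, a fit that leaves 1 KO library within 1 flow cell, with the sign kept. Over all alternatives, the Stag2 call was lost in 7 for LSK and 3 for CFU-E. In GMP the Stag2 values of the genotypes overlapped (106 ± 30.2 CPM in KO, against 147 ± 51.03 in WT; -0.47 ± 0.27, adjusted p = 0.360), so GMP rest on their labels. The sorted CFU-E and GMP carried their own markers. Erythroid markers summed to 7820 to 9545 CPM in CFU-E and 218 to 323 CPM in GMP. Granulocyte and monocyte progenitor markers summed to 22553 to 56585 CPM in GMP and 30.8 to 155 CPM in CFU-E. LSK libraries were mixed, with stem cell markers at 1228 to 2039 CPM and granulocyte and monocyte progenitor markers at 5887 to 18976 CPM. Mature B and plasma cell markers there summed to 576 to 4276 CPM. Values are CPM, counts scaled to library size, after TMM scaling within a population, errors of means are SD, and errors of log2 fold changes are SE.

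Of the tested contrasts of KO with WT, 1 member passed in 1 population: Rhoj fell in Stag2 KO GMP. Rhoj had 8.88, 8.12, 11.3 and 8.07 CPM in the 4 KO GMP libraries, from 12, 29, 39 and 24 counts, against 37.3, 21.8 and 31.4 CPM in the 3 WT libraries, from 160, 76 and 119 counts. Every KO library lay below every WT library, a split whose share over all genes was counted only in CFU-E. The fall was 3.30-fold (log2 fold change -1.72 ± 0.28, edgeR quasi-likelihood adjusted p = 0.00452). In this comparison 1.45% of 9969 genes passed the test, and Rhoj was the 1 gene called of the 3 members with enough counts to be tested. Leaving out any single GMP library kept the call, with a log2 fold change of -1.91 to -1.54. Thinning every library to the depth of the shallowest gave -1.46 and an adjusted p of 0.0425. Endothelial defining markers summed to 29.9 to 70.5 CPM in KO GMP and 68.8 to 122 CPM in WT GMP, with Cdh5 and Tek at 0 in both genotypes and Cldn5 also at 0 in WT. Of these 10 markers, 2 could be tested and neither was called. Egfl7, on that list, had 98.8 ± 30.1 CPM in WT GMP on the scale shared with CFU-E. The WT sum is therefore mainly a reading of that gene. Granulocyte and monocyte progenitor markers summed to 22553 to 46275 CPM in KO GMP and 34920 to 56585 CPM in WT GMP, and megakaryocyte and platelet markers to 123 to 158 CPM in KO GMP and 83.5 to 119 CPM in WT GMP. The part of these markers in the Rhoj fall was not tested, and in bulk RNA fewer cells of a type and less RNA per cell cannot be told apart.

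The other tested members in GMP were Pecam1 and Ly9, and neither passed. Pecam1, a self-binding receptor at endothelial contacts that recruits tyrosine phosphatases, had 22.2, 23.5, 19.4 and 14.8 CPM in KO and 29.2, 26.1 and 21.9 CPM in WT (-0.37 ± 0.25, edgeR adjusted p = 0.440). Ly9 had 30.3, 30.2, 26.4 and 22.9 CPM in KO and 23.1, 20.04 and 27.7 CPM in WT (0.21 ± 0.24, edgeR adjusted p = 0.654). For both genes the genotypes overlapped. Cdh5, the gene of the adherens junction protein VE-cadherin, had no count in any GMP library, which allows up to 0.275 CPM over the KO group and 0.244 CPM over the WT group. Jam2, Jam3, Emcn and Plxna2 had at most 4 counts in any GMP library and F11r at most 9. Esam had 0, 9, 3 and 0 counts in KO GMP and none in any WT library, too few for a test.

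**Figure D1:**
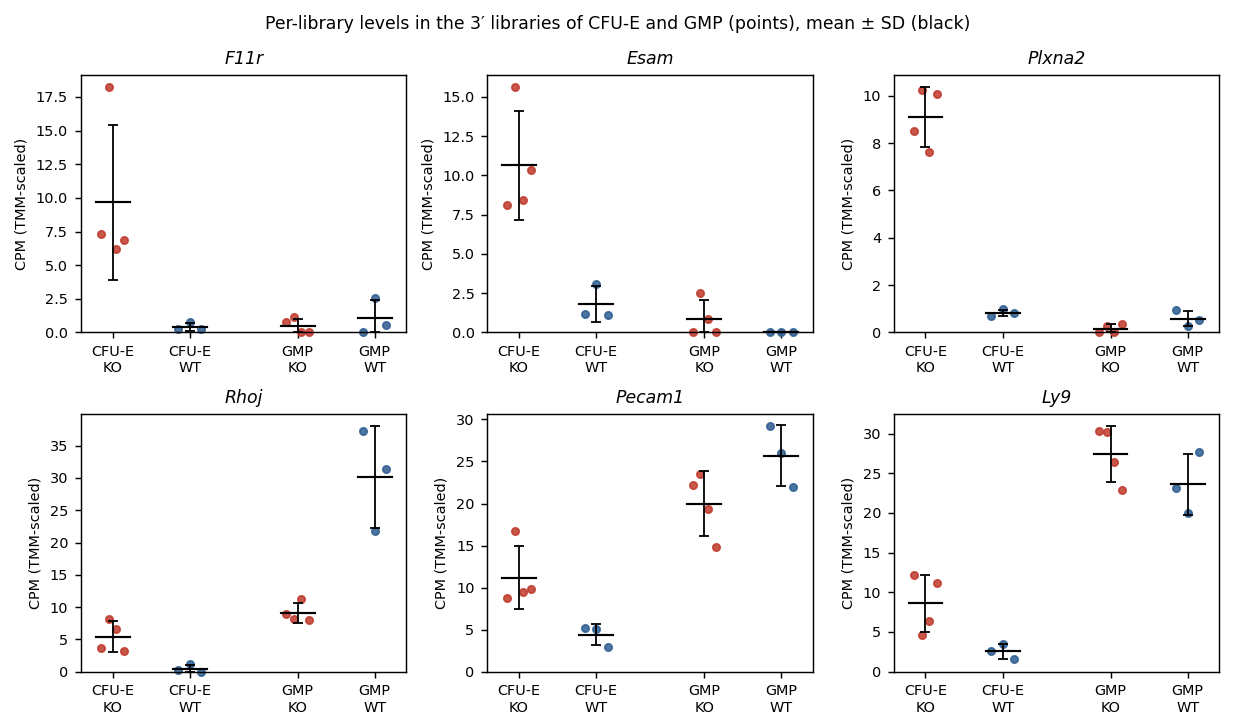
TMM-scaled CPM of 6 genes in CFU-E and GMP libraries; each point is 1 library, the line is the group mean and the bar 1 SD (stopped at 0), with KO left of WT. Rhoj is lower in KO than WT in GMP and higher in KO than WT in CFU-E, while Esam and F11r are near 0 in GMP.

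In CFU-E the Rhoj level was higher in KO. It had 3.66, 8.20, 6.58 and 3.18 CPM in KO CFU-E, from 18, 44, 32 and 12 counts, against 0.235, 1.16 and 0 CPM in WT, from 1, 6 and 0 counts (log2 fold change 3.20 ± 0.78, a description without a test). All 4 KO libraries lay above the 3 WT libraries. The WT libraries held 7 counts in all, so the size is uncertain. Within the flow cell of KO 1, WT 1 and WT 2 it was 2.26, while in the other flow cell, where the 1 WT library has no count, the fitted value depends on the prior count. The same holds without KO 1. The value moved to 4.99 without WT 2. Leaving out WT 3 repeats the comparison within the flow cell of KO 1 (2.27). In LSK, Rhoj had 2.85, 3.88 and 4.21 CPM in KO and 4.49, 6.46, 4.41 and 3.60 CPM in WT, and the genotypes overlapped (-0.38 ± 0.27, edgeR adjusted p = 0.853). The KO effect in LSK minus that in GMP was 1.41 ± 0.37 for Rhoj, which did not pass over all genes (edgeR adjusted p = 0.332). In that test 0% of 16288 genes were called, none of them a member, although 1732 had an unadjusted p under 0.05 and DESeq2 called 62. F11r, Esam, Jam2, Jam3, Emcn and Plxna2 had at most 9 counts in any GMP library and entered that test through LSK. For them the lack of a call says nothing about a difference in KO effect. Xist had 4734 to 10812 counts in the LSK libraries and 2 to 37 in the GMP and CFU-E libraries, and Ddx3y at most 1 count in LSK and 114 to 438 in the others, so population, sex and kit cannot be told apart in that difference.

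On a scale shared by GMP and CFU-E, the 2 populations with the same kit, the Rhoj level was 4.91 ± 2.20 CPM in KO CFU-E (n = 4), 0.421 ± 0.559 in WT CFU-E (n = 3), 9.81 ± 1.79 in KO GMP (n = 4) and 34.4 ± 8.68 in WT GMP (n = 3). WT GMP stood clear of the other groups, and KO CFU-E and KO GMP did not overlap (2.87 to 7.46 CPM, against 8.32 to 12.4). Rhoj had 7 counts over the WT CFU-E libraries and entered that comparison with WT GMP only through its GMP level, so no test is given for it. Pecam1 was lower in WT CFU-E than in WT GMP, with 3.96 ± 1.08 CPM against 29.4 ± 3.91 (-2.70 ± 0.36, edgeR adjusted p = 8.57e-07). CFU-E WT 3 was the only library of this comparison in its flow cell. With the flow cell term, the log2 fold changes and calls between these cell types therefore rest on CFU-E WT 1 and WT 2, while the CPM means include WT 3. Between these cell types 46.9% of 10329 genes passed, 25.0% as lower in CFU-E, so a difference here is common. Ly9 was also lower in WT CFU-E, at 2.31 ± 0.843 CPM against 27.0 ± 4.47 in WT GMP (-3.30 ± 0.39, no test, since its CFU-E level helped to choose it).

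In CFU-E, 6 of the 10 members passed the count filter, all 6 were higher in every KO than in every WT library, and 4 of them were chosen for that. Over all 10170 genes tested, 6.13% were higher in every KO than in every WT library, while 1.06% were called, 0.354% as higher. The median log2 fold change of the 6 was 2.82, beside 0.00 over all genes tested. No test is attached to these values, and a gene that is near 0 in WT passes the filter only because it is high in KO.

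F11r encodes JAM-A, which binds itself and the integrin LFA-1. It had 7.31, 18.3, 6.17 and 6.90 CPM in KO CFU-E, from 36, 98, 30 and 26 counts, against 0.235, 0.776 and 0.270 CPM in WT, from 1, 4 and 1 counts. KO 2 stood far above the other KO libraries, and the lowest KO library was still well above the highest WT library. The fold was 18.0 (log2 4.17 ± 0.68), with 3.71 and 5.15 within the 2 flow cells and 3.92 without KO 2. Leaving out KO 1, the only KO library in its flow cell, repeats the comparison within the other flow cell (5.15). The value was 4.99 without WT 2.

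Esam encodes an adhesion molecule of endothelial contacts, platelets and stem cells. It had 8.13, 15.6, 8.43 and 10.3 CPM in KO CFU-E and 1.17, 3.10 and 1.08 CPM in WT (log2 2.45 ± 0.49). Within the flow cells the log2 fold change was 1.86 and 3.38. Leaving out KO 1 repeats the second of these comparisons (3.38), and the value was 3.09 without WT 2. Again KO 2 was the highest KO library.

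Plxna2, the semaphorin receptor gene, varied least of the 6 across alternatives. It had 8.53, 10.2, 7.61 and 10.1 CPM in KO CFU-E, from 42, 55, 37 and 38 counts, against 0.704, 0.970 and 0.809 CPM in WT, from 3, 5 and 3 counts (log2 3.36 ± 0.43, or 10.3-fold). The WT libraries held 11 counts in all, so here too the size is uncertain. The value lay between 3.27 and 3.51 in all 15 alternatives, including 3.28 and 3.47 within the 2 flow cells.

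Ly9 had 12.2, 4.66, 6.38 and 11.1 CPM in KO CFU-E and 2.58, 3.49 and 1.62 CPM in WT (log2 2.05 ± 0.43). Its order among the KO libraries differed from that of the other genes: KO 2, the highest for F11r, Esam, Pecam1, Rhoj and Plxna2, was the lowest for Ly9. Pecam1 had 8.74, 16.8, 9.46 and 9.81 CPM in KO and 5.17, 5.05 and 2.97 CPM in WT (log2 1.33 ± 0.40), with 0.76 and 2.01 within the 2 flow cells. Leaving out KO 1 (2.01) or WT 3 (0.77) leaves the same comparisons within 1 flow cell. Jam2, Jam3, Cdh5 and Emcn had at most 2 counts in any CFU-E library, and Emcn had none in KO (up to 0.159 CPM over the group).

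**Figure D2:**
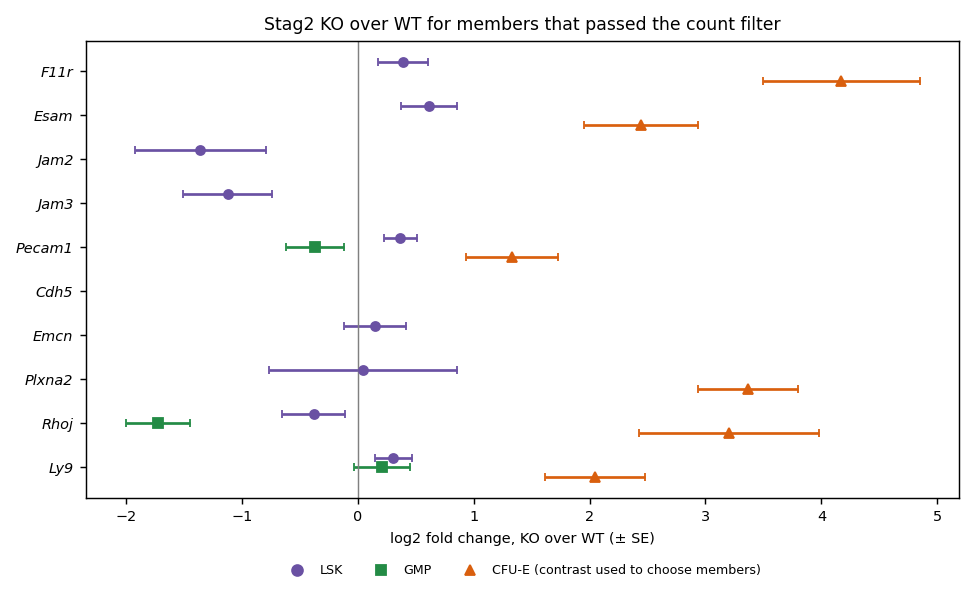
Log2 fold change, KO over WT (x axis), with SE bars for each member that passed the count filter, in LSK (circles), GMP (squares) and CFU-E (triangles; this contrast chose 4 of the genes). Rhoj lies at -1.72 in GMP and 3.20 in CFU-E, and the 6 CFU-E values all lie right of 0.

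Megakaryocyte and platelet markers were also higher in KO CFU-E. The summed level of 20 such markers was 853, 1477, 718 and 836 CPM in KO CFU-E and 228, 468 and 330 CPM in WT. Of 16 markers tested, 15 had a positive log2 fold change and 6 were called higher (median 1.51); Tubb1 was at 0 in both genotypes. KO 2 had the highest marker sum. The erythroid marker sum was 8927 to 9545 CPM in KO and 7820 to 8949 CPM in WT. The part of these markers in the member values was not tested. Endothelial defining markers summed to 200 to 355 CPM in KO and 207 to 265 CPM in WT CFU-E, with Cldn5 and Lyve1 at 0 in KO and Cdh5, Robo4, Cldn5 and Lyve1 at 0 in WT. Egfl7, on that list, had 204 ± 60.5 CPM in KO and 193 ± 26.0 CPM in WT, so the sum is mainly a reading of that gene.

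**Figure D3:**
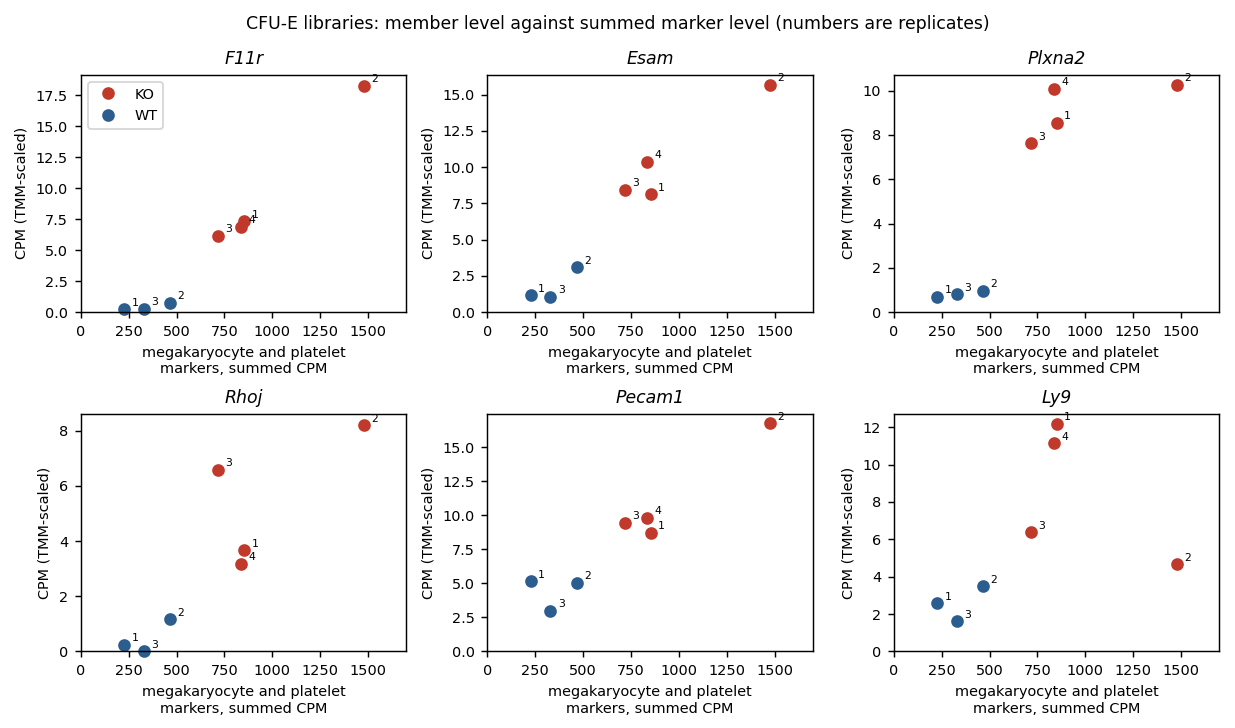
Level of each of 6 genes (y axis, CPM) against the summed level of 20 megakaryocyte and platelet markers (x axis, CPM) in the 7 CFU-E libraries; numbers are replicates. The KO library with the highest marker sum, 1477 CPM, is highest for F11r, Esam, Plxna2, Rhoj and Pecam1 and lowest of the KO libraries for Ly9.

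Over the 14 GMP and CFU-E libraries and 11005 genes, the genes whose log2 CPM tracked F11r most closely were Mylk (Pearson r = 0.90), Ctla2a (0.88) and Fabp5 (0.88). For Esam they were Treml1 (0.93), Tspan6 (0.93) and Srxn1 (0.92). Within the 7 CFU-E libraries alone r was 0.96 for Mylk with F11r and 0.92 for Treml1 with Esam, and within the 7 GMP libraries it was 0.73 and 0.75. The points share kit and flow cells, and most GMP values of both genes are near 0. F11r and Esam were chosen for being higher in KO CFU-E. Any gene with the same step between genotypes therefore gives a high r, and these values are a description and no separate support.

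In LSK cells no member passed the test. There 0.0793% of 17664 genes were called, none of the 9 members tested; the median of these 9 was 0.15, beside 0.00 over all genes. Per kilobase of the longest coding transcript, the order in KO LSK was Esam at 34.3 ± 6.16 CPM per kb, Pecam1 at 30.0 ± 2.97, Ly9 at 20.7 ± 3.24, F11r at 16.6 ± 4.21 and Emcn at 6.11 ± 1.201. In WT LSK, Pecam1 (23.2 ± 3.28) and Esam (22.4 ± 7.17) came first, within each other's spread, followed by Ly9 (16.7 ± 2.39), F11r (12.7 ± 2.56), Emcn (5.50 ± 1.64) and Jam3 (2.43 ± 1.16). Jam2, Rhoj, Cdh5 and Plxna2 were lower still, from 1.09 down to 0.0521 CPM per kb in WT.

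The 5 members with the highest levels per kilobase had positive log2 fold changes short of the threshold. Esam had 58.8, 55.9 and 77.1 CPM in KO LSK and 59.1, 34.1, 44.9 and 28.9 CPM in WT, where WT 1 reached the KO values (0.61 ± 0.24, edgeR adjusted p = 0.561). Pecam1 had 92.6, 113 and 104 CPM in KO and 93.4, 71.4, 84.8 and 69.7 CPM in WT (0.37 ± 0.14, edgeR adjusted p = 0.541). F11r (0.39 ± 0.22, adjusted p = 0.776), Ly9 (0.31 ± 0.16, adjusted p = 0.729) and Emcn (0.15 ± 0.27, adjusted p = 0.920) overlapped between genotypes, and the Emcn value was -0.03 without WT 1. Plxna2 was barely detected, at 0.602 ± 0.112 CPM in KO and 0.576 ± 0.437 CPM in WT. The megakaryocyte and platelet marker sum was 1045 to 1145 CPM in KO LSK and 732 to 1035 CPM in WT, with no overlap between the genotypes. All 20 markers were detected, and of the 19 tested 11 had a positive log2 fold change and none was called. The part of these markers in the values of Esam, Pecam1 and F11r was not tested. The mature B and plasma cell marker sum was 1192 to 4276 CPM in KO LSK and 576 to 3721 CPM in WT. Within each genotype this sum and Ly9 were highest in the same library (KO 2 and WT 3) and lowest in the same library (KO 1 and WT 1). The part of the B and plasma cell markers in the Ly9 value was not tested.

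Jam2 and Jam3, whose products JAM-B and JAM-C bind each other, lay on the other side of 0. Jam3 had 1.54, 2.47 and 2.51 CPM in KO LSK and 3.19, 8.08, 3.98 and 3.64 CPM in WT (-1.12 ± 0.38, edgeR adjusted p = 0.476). Jam2 had 2.96, 0.950 and 1.60 CPM in KO and 4.04, 9.62, 2.61 and 2.74 CPM in WT (-1.36 ± 0.56, edgeR adjusted p = 0.605). WT 2 was the highest library for both, and without it the values were -0.74 for Jam3 and -0.77 for Jam2. Cdh5 missed the filter, with 4, 3 and 4 counts in KO LSK and 9, 12, 10 and 8 counts in WT, again with WT 2 highest. The endothelial defining marker sum was 157 to 236 CPM in KO LSK and 194 to 284 CPM in WT, and the macrophage sum was 51.2 to 99.4 CPM in KO and 76.1 to 187 CPM in WT; their part in these values was not tested.

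**Figure D4:**
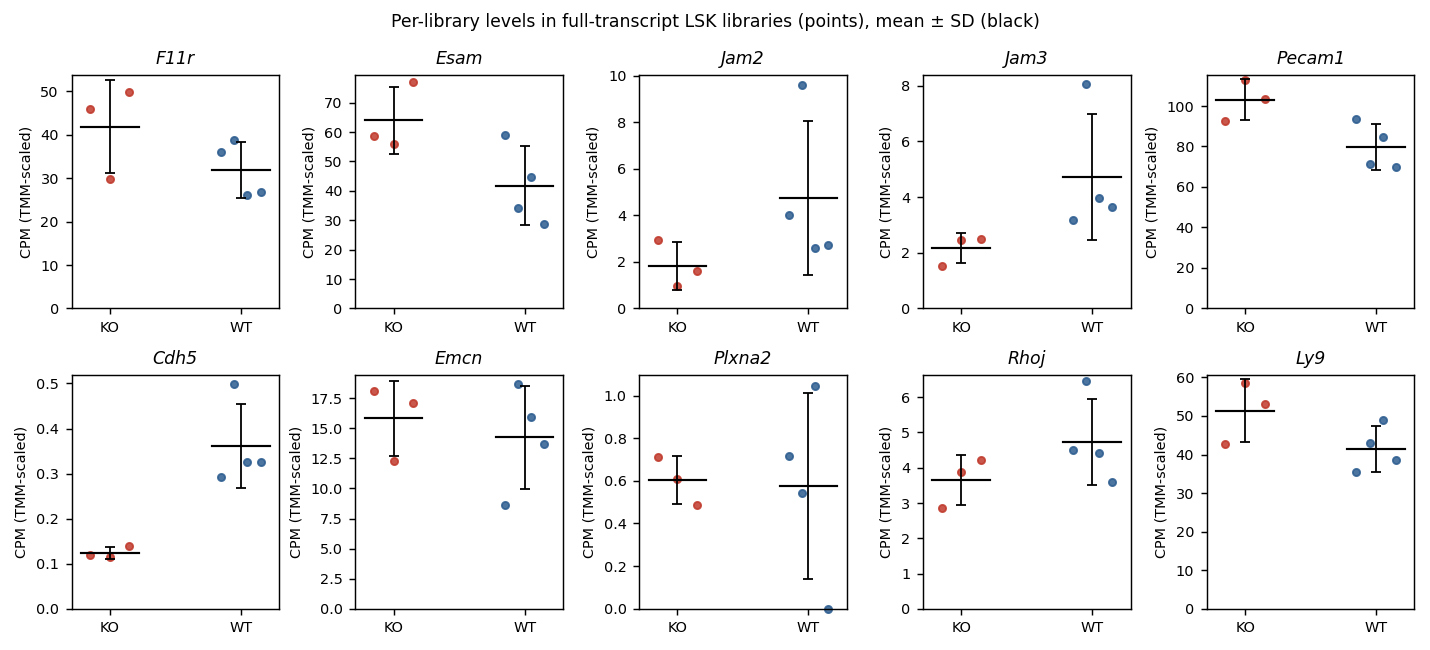
TMM-scaled CPM of the 10 genes in LSK libraries; each point is 1 library, the line is the mean and the bar 1 SD (stopped at 0), with KO (n = 3) left of WT (n = 4). WT 2 is the highest point for Jam2, Jam3 and Cdh5.

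Genes that work with these proteins were followed in lists of related genes. Of the partners and scaffolds of junctional adhesion molecules, none of 37 passed in LSK, 2 of 18 fell in KO GMP and 1 of 15 fell in KO CFU-E. In GMP, Cdh1, the epithelial cadherin gene, fell to 2.35 ± 1.48 CPM in KO, against 23.8 ± 8.32 in WT (log2 -3.27 ± 0.44, edgeR adjusted p = 0.00126), a call kept in all 14 alternatives, and the claudin gene Cldn1 fell to 3.03 ± 1.90 CPM, against 14.4 ± 4.32 (-2.11 ± 0.41, edgeR adjusted p = 0.0178). The Cldn1 call was lost without KO 3 or without any 1 of the WT libraries (adjusted p 0.0575 to 0.0852). In CFU-E, the nectin gene Pvrl2 fell to 1.88 ± 1.28 CPM in KO, against 15.9 ± 6.15 in WT (-3.06 ± 0.50, edgeR adjusted p = 0.00737). The Pvrl2 call was lost without KO 1, without WT 3 and within the flow cell of KO 2, KO 3, KO 4 and WT 3. Each of these fits leaves 1 library in a genotype, which limits what the loss shows. Cdh1, Cldn1 and Pvrl2 were low in KO and passed the count filter only through their WT libraries. Their calls carry that limit, and the size of each fall is uncertain.

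Of the integrin partners, none of 18 passed in LSK and none of 14 in GMP, and 2 of 13 rose in KO CFU-E. Both encode the platelet fibrinogen receptor and both are on the megakaryocyte marker list: Itga2b reached 168 ± 61.2 CPM in KO, against 54.8 ± 16.0 in WT (1.56 ± 0.29, edgeR adjusted p = 0.0163), and Itgb3 reached 42.0 ± 10.98 CPM, against 12.04 ± 4.63 (1.88 ± 0.30, edgeR adjusted p = 0.00610). Both calls were lost without KO 1 and without WT 3, fits that each leave 1 library in a genotype. Over all alternatives, the Itga2b call was lost in 4 and the Itgb3 call in 2. In GMP the laminin, fibronectin and leukocyte integrin genes that were tested gave no call, and Vcam1 had 267 ± 21.8 CPM in KO and 323 ± 84.2 CPM in WT.

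Of the endothelial identity genes, none of 38 passed in LSK and none of 16 in GMP, and 1 of 16 rose in KO CFU-E: Ctla2a, at 14.4 ± 3.13 CPM in KO and 4.63 ± 1.37 CPM in WT (1.59 ± 0.32, edgeR adjusted p = 0.0280). That call was lost in 6 of 15 alternatives, among them without KO 1 and without any 1 of the WT libraries. Without KO 1 or WT 3 the fit leaves 1 library in a genotype. Of the plexins, neuropilins and semaphorins, none of 35 passed in LSK and none of 10 in GMP, and 1 of 8 fell in KO CFU-E. This was Plxnc1, the semaphorin 7A receptor gene, at 30.9 ± 3.46 CPM in KO and 65.7 ± 14.3 CPM in WT (-1.16 ± 0.19, edgeR adjusted p = 0.00737). Its sign was opposite to that of Plxna2. The Plxnc1 call was lost in 2 alternatives, among them without WT 3, a fit that leaves 1 KO library. In GMP, Plxnc1 had 10.8 ± 2.59 CPM in KO and 25.3 ± 9.46 CPM in WT and missed the threshold (-1.22 ± 0.32, edgeR adjusted p = 0.0707).

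Of the SLAM receptors and adaptors, none of 11 passed in LSK, none of 4 in GMP and none of 2 in CFU-E. Ly9 and F11r lie on chromosome 1 with Refbp2, Itln1 and Cd244 between them in the annotation, and none of these 3 was called in any population. Refbp2 had 11.3 ± 2.50 CPM in KO CFU-E and 13.4 ± 0.652 CPM in WT, Itln1 had no count in CFU-E, and Cd244, another SLAM receptor gene, had 4 counts over the KO CFU-E libraries and 3 over the WT libraries. In LSK, Cd244 had 62.6 ± 11.2 CPM in KO and 39.9 ± 6.46 CPM in WT (0.65 ± 0.17, edgeR adjusted p = 0.306). Beside Plxna2, Cd34 had 5.24 ± 2.02 CPM in KO CFU-E and 2.47 ± 0.982 CPM in WT (0.89 ± 0.45, edgeR adjusted p = 0.573).

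The neighbour of Esam with the largest difference was Robo3, the gene of an axon guidance receptor. Robo3 had 16.9, 16.3 and 8.95 CPM in KO LSK and 3.26, 3.96, 1.99 and 2.29 CPM in WT, and missed the threshold (2.29 ± 0.32, edgeR adjusted p = 0.0617). In CFU-E it had 5.28, 3.35, 2.67 and 7.16 CPM in KO and 0.470, 0.776 and 1.08 CPM in WT, again short of the threshold (2.55 ± 0.59, edgeR adjusted p = 0.0646). Robo3 passed the count filter there only through its KO libraries. Robo4, an endothelial receptor gene also expressed by stem cells, had 19.8 ± 4.17 CPM in KO LSK and 10.9 ± 3.06 CPM in WT (0.85 ± 0.26, edgeR adjusted p = 0.393). The neighbours on the other side of Esam were not higher in both. Nrgn had 35.9 ± 8.85 CPM in KO CFU-E and 44.9 ± 5.93 CPM in WT (-0.39 ± 0.21, edgeR adjusted p = 0.613). In LSK, Nrgn lay at 0.23 ± 0.15 (edgeR adjusted p = 0.825) and Vsig2 at -0.32 ± 0.33 (edgeR adjusted p = 0.886). Where the counting did not use strand, reads of overlapping neighbours cannot be told apart.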

How the data were processed

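RNA counts were analysed for 21 libraries in 6 groups taken from the labels. The values are whole-number counts per gene, deposited by the authors without normalization. STAR 2.4, HTSeq 0.6.1, DESeq2 and the build mm9 are named in the submitters' processing notes, while annotation and strand setting are not given here in any source used.

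Genes were filtered with filterByExpr (minimum count 10, minimum total 15) and tested in R 4.3.3 with edgeR 4.0.16 (TMM factors, quasi-likelihood F test, Benjamini-Hochberg adjustment over all genes tested, threshold 0.05). CFU-E comparisons carry a flow cell term. With this term, a KO against WT fit without KO 1 or without WT 3 is a comparison within 1 flow cell, with 1 library in a genotype. In WT CFU-E against WT GMP the term leaves CFU-E WT 3 out of the estimate. KO was compared with WT in each population, the KO effect in LSK with that in GMP, and WT CFU-E with WT GMP. SE was taken as log2 fold change over the root of F. LSK levels were not set against the others because the kits differ. The script was tested on simulated data. Replicates within groups all differed by more than sampling noise (chi-square per degree of freedom at least 4.03).

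The members and lists were chosen with earlier results of these data known. Named genes are the 10 members, Stag2, list genes past the threshold or among the 3 most abundant, neighbours of F11r, Esam, Plxna2 and Ly9, and the 3 genes most like F11r and Esam. A further gene list is not reported here. Transcript lengths are from GENCODE M21 and promoters from RefSeq. DESeq2 1.42.0, other scaling and filters, flow cells, a replicate block, thinning and left-out libraries were the alternatives.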

Additional observations from a re-analysis of the deposited data

Results flagged for a closer look

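Within groups of 4 libraries, 4 values stood apart from the rest of their group by Dixon's criterion at its 95% critical value. They came out of 19 combinations of a gene and a group. Chance flags about 1 in 20 independent cases. These 19 share libraries, and all 4 flags come from CFU-E KO 2 and LSK WT 2, so that rate is only a rough guide. In KO CFU-E, library KO 2 stood apart for F11r at 18.3 CPM and for Pecam1 at 16.8 CPM. In WT LSK, library WT 2 stood apart for Jam3 at 8.08 CPM and for Cdh5 at 0.4998 CPM, which rests on 12 counts.

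The KO effect on Rhoj had opposite signs in the 2 populations with the same kit. The log2 fold change was -1.72 in GMP, where every KO library was below every WT library, and 3.20 in CFU-E, where every KO library was above every WT library. In CFU-E, 6.13% of the 10170 genes tested had every KO above every WT library, and in GMP the matching share was not counted. The CFU-E value rests on 7 counts over the WT libraries, and Rhoj passed the filter there only through KO. The difference between these effects was not tested, since the CFU-E contrast was used to choose genes.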

How the results depend on the processing

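Of the tested members, the calls did not change under any alternative: 0 in LSK, 1 in GMP (Rhoj), 0 for LSK minus GMP and, in WT CFU-E against WT GMP, Pecam1. Rhoj was also called there under each alternative, but it entered only through WT GMP and that call is no support. For LSK minus GMP, the lack of calls speaks only to Pecam1, Rhoj and Ly9, since the other members tested were near 0 in GMP. For Rhoj in GMP the log2 fold change lay between -1.91 and -1.46. The number of genes called moved more. In LSK it was 14 and became 342 with DESeq2, 38 without a filter on low counts, 1 without WT 2 and WT 4, and 0 to 123 when 1 library was left out. In GMP it was 145 and became 300 with DESeq2, 601 without the filter, 65 after thinning to the shallowest library, and 38 to 211 when 1 library was left out. In CFU-E it was 108 and became 182 with DESeq2, 333 without the filter, 234 without the flow cell term, and 22 to 143 when 1 library was left out. For LSK minus GMP it was 0 and became 62 with DESeq2, 12 without the filter, and 0 to 8 when 1 library was left out. The cause was not tested.

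The column names give GMP and CFU-E libraries of the same genotype and replicate number the same tag. Each LSK library has its own code, and what tags and codes stand for is not stated. Same-numbered libraries correlated at -0.16, 0.17 and 0.25 in GMP and at 0.20, 0.27 and -0.19 in CFU-E. The values were below 0.1 in LSK and below 0 between WT CFU-E and WT GMP. These few values do not settle whether replicate numbers pair the libraries. With the number as a replicate block, there were 0 calls for LSK, 331 for GMP and 32 for CFU-E (with the flow cell term), and no member's call changed.

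Depth limits the low genes most. Jam2, Jam3, Cdh5 and Emcn rest on 0 to 2 counts per library in CFU-E, and F11r, Plxna2 and Rhoj on 0 to 6 counts in WT CFU-E, so the size of their difference is uncertain.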
